A study of Homo sapiens with 12 samples.

Results

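Transcript levels of the enzymes that write and remove repressive marks on histones and DNA were measured in SK-N-SH, an established human neuroblastoma line derived from bone marrow. The 10 genes were EZH1, EZH2, EED and SUZ12, the core of Polycomb repressive complex PRC2, the DNA methyltransferases DNMT1, DNMT3A and DNMT3B, and the 5-methylcytosine oxidases TET1, TET2 and TET3. All probes carrying one of these symbols in the platform's gene table were taken, which gave 19 of the 47323 probes on the array, for 9 of the 10 genes. No probe was listed for TET3. Illumina bead arrays were hybridized with RNA of 4 groups of 3 samples each. WT was the parental line. WT-v was the parental line exposed now and then to vorinostat (SAHA), an inhibitor of histone deacetylases. DoxR was the line selected in rising doses of doxorubicin, a topoisomerase poison, until it survived far above the dose that inhibits parental cells. DoxR-v was selected in the same way with vorinostat given at each large step in dose. All groups shared the SK-N-SH background and each was a single line, so what the drug did cannot be told apart from drift of that line in culture. The labels and the study's methods do not say that replicates were separate cultures, so p-values measure only the spread between these samples, which may be technical.

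PRC2 trimethylates lysine 27 of histone H3 and so keeps genes silent. EZH2 is its catalytic subunit in dividing cells, EZH1 a related catalytic subunit that is more common in resting cells, and EED and SUZ12 are required for activity. DNMT1 copies methylation onto the new DNA strand at replication, DNMT3A and DNMT3B place methylation on unmethylated DNA, and the TET enzymes oxidize methylcytosine as the start of its removal. High EZH2 is a well-known feature of undifferentiated neuroblastoma.

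EZH2 and DNMT3B gave most of the calls described here and DNMT1 followed EZH2 in part. The DNA just upstream of a start site of each is shown so that its base composition can be seen beside the expression values. The windows are the 250 bases before a transcription start in RefSeq annotation of build GRCh38.p14, read 5′ to 3′ on the strand of the gene. All 10 genes had a window. Capitals mark GC boxes (GGGCGG) and CCAAT boxes (CCAAT) on either strand, and overlapping matches run together.
EZH2 (chr7:148884292-148884541, minus strand): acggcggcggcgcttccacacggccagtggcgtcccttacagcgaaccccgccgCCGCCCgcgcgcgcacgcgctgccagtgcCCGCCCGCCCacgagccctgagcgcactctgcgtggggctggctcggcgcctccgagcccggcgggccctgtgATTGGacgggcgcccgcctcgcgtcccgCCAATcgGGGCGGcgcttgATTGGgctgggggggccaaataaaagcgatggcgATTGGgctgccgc
DNMT1 (chr19:10194954-10195203, minus strand): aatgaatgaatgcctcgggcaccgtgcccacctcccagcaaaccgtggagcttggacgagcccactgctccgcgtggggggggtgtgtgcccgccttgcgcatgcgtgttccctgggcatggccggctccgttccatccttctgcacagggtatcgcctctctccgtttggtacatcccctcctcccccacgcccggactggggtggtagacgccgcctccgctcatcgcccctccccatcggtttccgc
DNMT3B (chr20:32779602-32779851, plus strand): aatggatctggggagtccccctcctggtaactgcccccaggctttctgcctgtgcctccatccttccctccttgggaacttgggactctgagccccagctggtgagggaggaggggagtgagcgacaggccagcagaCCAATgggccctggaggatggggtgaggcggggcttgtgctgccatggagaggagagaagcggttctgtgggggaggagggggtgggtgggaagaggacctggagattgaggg
The EZH2 window held 38 CpG dinucleotides, 4 GC boxes and 4 CCAAT boxes, and more CpG than 96.7% of the 35114 windows of the same length. EZH2 had a further start site, whose window is not shown. The DNMT1 window held 21 CpG and neither motif. The DNMT3B window held 3 CpG and 1 CCAAT box. Its start site lies 17467 bases inside the annotated gene, so it is not the region before the first exon. The median window held 11 CpG, 42.6% of windows held a GC box and 32% a CCAAT box. Strings of the E2F type, TTTGGCGC (in 0.55% of windows) and TTTCCCGC (in 1.39%), did not match in these 3 windows. Among the first listed windows of the 10 genes, a single SUZ12 match to TTTCCCGC was found. These matches describe letters, not bound sites.

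A probe was tested when its signal exceeded that of the negative controls (detection p below 0.01) on at least 1 array, which kept 14 of the 19 probes, for 8 genes, and 21609 probes in all. The level of a probe is its background-corrected, quantile-normalized intensity on the log2 scale, and a difference of 1 on this scale is a doubling. Levels are compared between groups for the same probe, never between probes. A probe was called in a comparison when the adjusted p from limma, taken over all 21609 probes, was below 0.1 and the fold change above 1.5. The 5 probes that were detected on no array were DNMT3A ILMN_1676128 and ILMN_1698137, DNMT3B ILMN_1733929 and ILMN_1734285, and the only TET2 probe, ILMN_1788818. Their levels lay between 4.27 and 5.03 on all 12 arrays, so no level of TET2 could be measured.

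Between 14969 and 17220 probes were detected per array. Correlations of levels ran from 0.982 to 0.992 within groups and from 0.936 to 0.971 between groups. All 9 adrenergic neuroblast markers that had a probe were detected in WT, WT-v and DoxR-v, and TH was below detection on the 3 DoxR arrays. The blood cell markers PTPRC, CD3E, HBB and HBA1 and the epithelial markers CDH1, KRT5 and KRT18 were detected on no array, while CD14 and KRT19 were detected on 10 arrays each, EPCAM on 6 and CD34 on 4. The log2 of the summed level of 6 mesenchymal markers was 9.74 to 9.91 in WT, 11.7 to 12.0 in WT-v, 13.4 to 13.5 in DoxR and 11.9 to 12.4 in DoxR-v, with the mesenchymal markers FN1 and YAP1 below detection on all arrays. The brightest markers weigh most in this sum, and the markers did not move together. Against WT, CD44 was called lower in WT-v and SNAI2 lower in DoxR-v, while every other called mesenchymal marker was higher. The 19 tested proliferation markers summed to 14.9 to 15.2 in WT, 15.2 to 15.3 in DoxR, 15.3 to 15.4 in DoxR-v and 15.6 on every WT-v array. Their part in the results below was not tested, and a change in the share of cycling cells and a change of RNA per cell cannot be told apart in bulk samples.

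DNMT3B, which places new methylation marks, was higher in both lines that had received vorinostat. Probe ILMN_2328972, detected on all 12 arrays, read 6.15, 6.17 and 5.93 in WT and 5.97, 6.17 and 5.98 in DoxR. It read 7.14, 6.92 and 7.28 in WT-v and 7.66, 7.71 and 7.54 in DoxR-v. All WT-v and DoxR-v arrays lay above all WT and DoxR arrays, DoxR-v lay above WT-v without overlap, and WT and DoxR overlapped. The level rose 2.04-fold in WT-v over WT (log2 difference 1.03 ± 0.13 SE, adjusted p = 9.57e-05 by limma) and 2.93-fold in DoxR-v over WT (1.55 ± 0.13, adjusted p = 2.42e-06). It was 3.03-fold higher in DoxR-v than in DoxR (1.60 ± 0.13, adjusted p = 1.05e-06). The difference of DoxR from WT was -0.05 ± 0.13 (adjusted p = 0.815). DoxR-v exceeded WT-v by 0.52 ± 0.13 (adjusted p = 0.0092), a 1.44-fold difference that stayed under the fold threshold. Without background correction, or with the authors' normalized values, the log2 difference of WT-v from WT was 0.58 or 0.34 and fell under the fold threshold, while the DoxR-v calls of DNMT3B ILMN_2328972 against WT and DoxR held.

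Another DNMT3B probe, ILMN_1794692, showed a similar order. Its levels were 5.47, 5.31 and 5.59 in WT, 5.39, 5.42 and 5.66 in DoxR, 6.63, 6.12 and 6.60 in WT-v, and 6.85, 6.73 and 6.78 in DoxR-v. Again the vorinostat-exposed arrays lay above the others without overlap. The folds were 1.99 for WT-v over WT (adjusted p = 0.00032 by limma), 2.52 for DoxR-v over WT (adjusted p = 2.94e-05) and 2.46 for DoxR-v over DoxR (adjusted p = 2.2e-05). With the authors' normalized values the log2 differences were 0.24, 0.35 and 0.35 in the same order, all under the fold threshold, and the WT-v call was also lost without background correction. Across the 12 arrays these DNMT3B probes had a Pearson r of 0.97, given as a description since both read the same RNA.

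The remaining tested DNMT3B probe, ILMN_2328977, was near the detection limit and was higher in DoxR-v alone. It read 5.73, 5.93 and 6.09 in DoxR-v, against 4.88, 5.64 and 4.93 in WT, 5.00, 5.23 and 5.47 in WT-v and 4.83, 5.05 and 5.02 in DoxR. DoxR-v lay above every other group without overlap, and the other groups overlapped. It was detected on 1 WT array, 2 WT-v arrays, no DoxR array and all DoxR-v arrays. The level was 1.70-fold higher in DoxR-v than in WT (adjusted p = 0.00998 by limma), at least 1.56-fold higher than in DoxR, where only a bound can be given (adjusted p = 0.00207), and 1.61-fold higher than in WT-v (adjusted p = 0.0186). The call against WT-v was lost without WT-v replicate 1 (log2 difference 0.57, adjusted p = 0.0814). The 3 calls of ILMN_2328977 were lost without background correction and with the authors' normalized values. In WT-v vs WT this DNMT3B probe differed by 0.08 ± 0.20 (adjusted p = 0.783 by limma), unlike the other tested DNMT3B probes. The platform's gene table lists the same transcript for all 3 tested DNMT3B probes, and whether they read different transcripts was not tested.

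**Figure D1:**
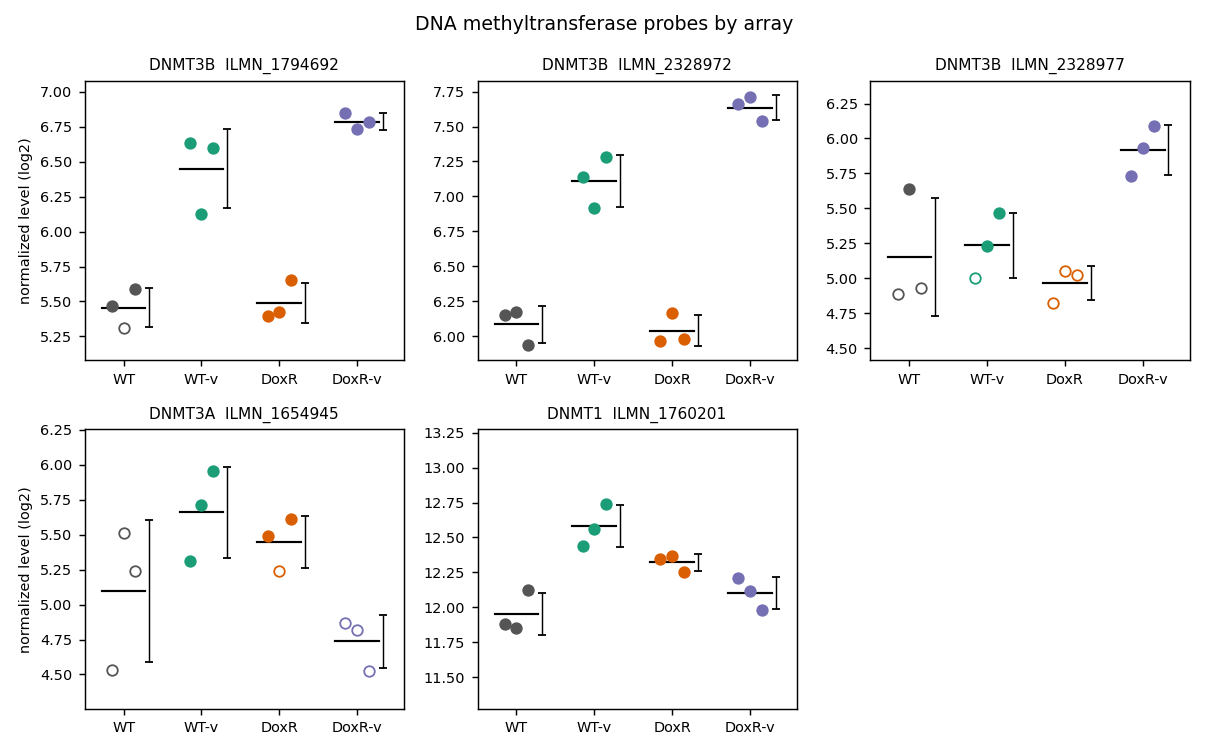
Normalized log2 level of the 5 tested DNA methyltransferase probes on each of 12 arrays, by group. Filled points were detected (detection p below 0.01) and open points were not; horizontal lines are group means and the bars beside them SD (n = 3). DNMT3B probes ILMN_1794692 and ILMN_2328972 stand above WT and DoxR in both WT-v and DoxR-v, while DNMT1 is highest in WT-v.

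DNMT1, the maintenance methyltransferase, had another order, with WT-v highest and the parental line lowest. Its probe ILMN_1760201 read 11.88, 11.85 and 12.12 in WT, 12.44, 12.56 and 12.74 in WT-v, 12.35, 12.37 and 12.25 in DoxR, and 12.21, 12.12 and 11.98 in DoxR-v. WT-v lay above DoxR and DoxR above DoxR-v without overlap, and DoxR-v overlapped WT. The rise in WT-v over WT was 1.55-fold (0.63 ± 0.13, adjusted p = 0.00244 by limma). It was close to the fold threshold, and the call was lost without WT replicate 2 (0.58, adjusted p = 0.012) or WT-v replicate 3 (0.55, adjusted p = 0.0133). DoxR differed from WT by 0.37 ± 0.13 (adjusted p = 0.0361) and DoxR-v from WT-v by -0.48 ± 0.13 (adjusted p = 0.0131), both under the fold threshold. DoxR-v differed from WT by 0.15 ± 0.13 (adjusted p = 0.417).

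DNMT3A, the other de novo enzyme, was faint. Its only tested probe, ILMN_1654945, was detected on all WT-v arrays (5.31, 5.71 and 5.96) and on 2 DoxR arrays (5.49, 5.24 and 5.61). It was detected on no WT array (4.53, 5.51 and 5.24) and on no DoxR-v array (4.87, 4.82 and 4.52). The DoxR-v arrays lay below all WT-v and all DoxR arrays, while WT overlapped every other group. DoxR-v was at least 1.29-fold lower than WT-v (adjusted p = 0.00893 by limma) and at least 1.11-fold lower than DoxR (adjusted p = 0.0312). Leaving out DoxR replicate 3 ended the call against DoxR (adjusted p = 0.101), as did leaving out DoxR-v replicate 3 (adjusted p = 0.107). The DNMT3A probe passed the filter on dim probes only through WT-v and DoxR, the higher groups of these comparisons, so its calls are a description and nothing is read from them. They were lost without background correction and with the authors' normalized values.

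EZH2, the catalytic subunit of PRC2, rose in WT-v on all 3 of its probes. Probe ILMN_1652913 read 7.20, 6.91 and 7.68 in WT, 8.78, 8.52 and 8.69 in WT-v, 7.98, 7.83 and 7.73 in DoxR, and 7.91, 8.33 and 7.78 in DoxR-v. WT lay below and WT-v above all other arrays, and DoxR and DoxR-v overlapped. WT-v exceeded WT 2.63-fold (1.40 ± 0.19, adjusted p = 0.000165 by limma), and DoxR-v exceeded WT 1.67-fold (0.74 ± 0.19, adjusted p = 0.0112). DoxR differed from WT by 0.58 ± 0.19 (adjusted p = 0.0295), just under the fold threshold at 1.496-fold. DoxR-v was 1.58-fold lower than WT-v (-0.66 ± 0.19, adjusted p = 0.0212).

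EZH2 probe ILMN_2364529 read 7.89, 8.32 and 8.51 in WT, 9.51, 9.18 and 9.48 in WT-v, 8.72, 8.58 and 8.37 in DoxR, and 8.85, 9.08 and 8.62 in DoxR-v. WT-v again stood above every other array and DoxR overlapped WT. The folds over WT were 2.22 in WT-v (adjusted p = 0.000398 by limma) and 1.52 in DoxR-v (adjusted p = 0.0222), and DoxR differed by 0.31 ± 0.18 (adjusted p = 0.192). Probe ILMN_1708105 read 7.73, 7.72 and 7.97 in WT, 8.45, 8.62 and 8.48 in WT-v, 8.34, 8.51 and 8.39 in DoxR, and 8.18, 8.29 and 8.40 in DoxR-v. On this EZH2 probe all 3 derived lines lay above WT without overlap and WT-v and DoxR overlapped. Its folds over WT were 1.64 in WT-v (adjusted p = 0.000795) and 1.53 in DoxR (adjusted p = 0.00159), and in DoxR-v 1.40, under the fold threshold (adjusted p = 0.00961).

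The EZH2 probes thus differed on whether DoxR passed the thresholds, and several EZH2 calls outside WT-v rested on single arrays. The DoxR call of ILMN_1708105 was lost without WT replicate 1, WT replicate 2 or DoxR replicate 2 (log2 differences 0.57, 0.56 and 0.56). The DoxR-v call of ILMN_1652913 was lost without WT replicate 2 (0.56) or DoxR-v replicate 2 (0.58), and that of ILMN_2364529 without WT replicate 1 (0.43) or DoxR-v replicate 2 (0.49). The DoxR-v vs WT-v call of EZH2 ILMN_1652913 was lost without DoxR-v replicate 3 (-0.54, adjusted p = 0.0864 by limma). The EZH2 calls in WT-v vs WT held with each array left out in turn. Without background correction or with the authors' normalized values, the EZH2 calls in DoxR, in DoxR-v and of ILMN_1708105 in WT-v were under the fold threshold.

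EED and SUZ12, the other subunits that PRC2 needs, were called in no comparison. The EED probe ILMN_2347917 read 7.66, 7.64 and 8.09 in WT, 7.94, 8.46 and 7.83 in WT-v, 8.20, 8.24 and 8.24 in DoxR, and 7.98, 8.01 and 7.90 in DoxR-v. DoxR lay above WT without overlap, by 0.43 ± 0.17 (adjusted p = 0.0605 by limma), and WT-v spanned most of the range. The SUZ12 probe ILMN_1797813 read 11.30, 10.89 and 11.42 in WT, 11.66, 11.75 and 11.58 in WT-v, 11.55, 11.47 and 11.32 in DoxR, and 11.37, 11.54 and 11.38 in DoxR-v. WT-v lay above all other SUZ12 arrays, with a log2 difference from WT of 0.46 ± 0.15 (adjusted p = 0.0266) that stayed under the fold threshold. With median scaling in place of quantile normalization, EED passed in WT-v (0.73, adjusted p = 0.00765), DoxR (0.76, adjusted p = 0.00634) and DoxR-v (0.65, adjusted p = 0.018) against WT, and SUZ12 in WT-v (0.63, adjusted p = 0.0154). That scaling raised the median of all probes by 0.13 in DoxR, 0.26 in DoxR-v and 0.24 in WT-v against WT.

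EZH1, the catalytic subunit associated with resting cells, was faint and highest in WT. Its probe ILMN_1791436 read 5.41, 6.08 and 5.39 in WT, 4.81, 5.55 and 5.12 in WT-v, 4.65, 5.33 and 4.92 in DoxR, and 5.46, 5.16 and 4.87 in DoxR-v. It was detected on 2 WT arrays and on 1 array of each other group, and DoxR alone did not overlap WT. The fall in DoxR was 1.58-fold (-0.66 ± 0.25, adjusted p = 0.0484 by limma). The EZH1 call was lost without WT replicate 2 (-0.43), DoxR replicate 1 (-0.50) or DoxR replicate 3 (-0.63), and under 4 changes of processing.

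**Figure D2:**
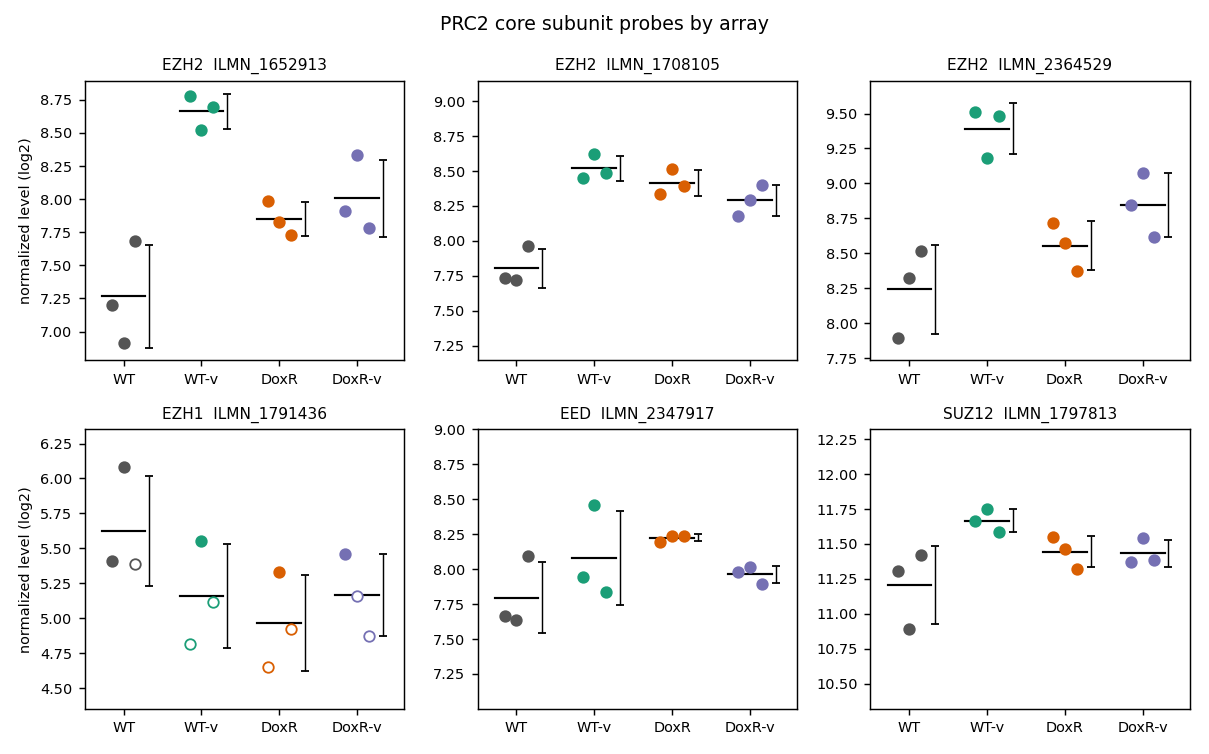
Normalized log2 level of the 6 tested PRC2 core probes on each of 12 arrays, by group, drawn with the symbols of the methyltransferase plot (filled points detected, lines means, bars SD, n = 3). WT-v stands highest on EZH2 probes ILMN_1652913 and ILMN_2364529 and on SUZ12, and EED and EZH1 overlap between most groups.

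TET1, the one TET gene with a measurable probe, was read by 3 probes that did not follow one order. Probe ILMN_3247163, detected on all 12 arrays, read 6.66, 6.36 and 6.68 in WT, 5.92, 6.52 and 5.79 in WT-v, 6.58, 6.59 and 6.20 in DoxR, and 7.16, 6.88 and 7.05 in DoxR-v. DoxR-v lay above every other array, and WT, WT-v and DoxR overlapped. TET1 on this probe was 1.94-fold higher in DoxR-v than in WT-v (0.95 ± 0.19, adjusted p = 0.00207 by limma). The call was lost without background correction (0.52), with the authors' normalized values (0.31) and with the TET1 probes averaged (0.50). DoxR-v differed by 0.46 ± 0.19 from WT (adjusted p = 0.0829) and by 0.58 ± 0.19 from DoxR (adjusted p = 0.0321), under the fold threshold in both.

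TET1 probe ILMN_1741056 read 5.08, 5.27 and 5.47 in WT, 5.51, 5.67 and 5.50 in WT-v, 6.10, 5.89 and 5.55 in DoxR, and 6.53, 6.22 and 5.49 in DoxR-v. All 3 derived lines lay above WT, DoxR-v with the widest spread of the groups. The probe was detected on 1 WT array and on all arrays of the other groups, so WT lay near the detection limit. The lowest DoxR-v array (5.487) stood just above the highest WT array (5.468). The rise in DoxR-v over WT was 1.75-fold (0.81 ± 0.23, adjusted p = 0.0167 by limma) and was lost without DoxR-v replicate 1 (0.58, adjusted p = 0.0795), without background correction (0.34), with the authors' normalized values (0.18) and with the TET1 probes averaged (0.28). The remaining TET1 probe, ILMN_1664909, was detected on a single WT array (5.70) and on no other array, at levels of 4.38 to 4.83, and was called in no comparison. The Pearson r between ILMN_1741056 and ILMN_3247163 was 0.47 over the 12 arrays, and that of each with ILMN_1664909 was below 0.

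**Figure D3:**
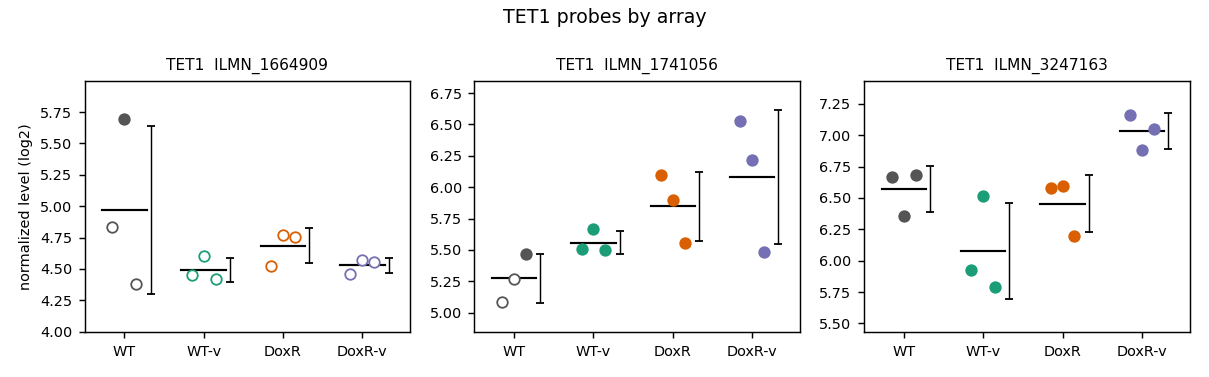
Normalized log2 level of the 3 tested TET1 probes on each of 12 arrays, by group (filled points detected, open points not detected, lines means, bars SD, n = 3). ILMN_3247163 is highest in DoxR-v and ILMN_1664909 is detected on 1 WT array alone.

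Counted over the 14 tested probes, 6 were called higher and 0 lower in WT-v vs WT, against a background of 13.2% of all probes called higher and 11.6% lower. The 6 were the 3 EZH2 probes, DNMT1 and 2 DNMT3B probes, and 9 of the 14 had an unadjusted limma p below 0.05, 8 of them higher. In DoxR-v vs WT, 6 were called higher (2 EZH2, 3 DNMT3B and 1 TET1 probe) and 0 lower, against 11.4% and 10.9% of all probes, with 8 higher and 0 lower at an unadjusted p below 0.05. The share of all probes at that unadjusted p was not counted, but low p-values were common. At an adjusted p below 0.1 with no fold threshold, 4912 of 21609 probes were higher and 4157 lower in WT-v vs WT. The same counts in DoxR-v vs WT were 4315 and 3966. In DoxR vs WT, 1 EZH2 probe was called higher and EZH1 lower, against 15.2% and 14.5% of all probes, a share of members no larger than the background. The median log2 difference of the 14 probes was 0.51 in WT-v, 0.47 in DoxR-v and 0.28 in DoxR, beside 0.02, 0.01 and 0.00 over all tested probes. Without background correction the counts fell to 3 in WT-v, 2 in DoxR-v and 0 in DoxR. Calls over all 21609 probes fell as well, from 5352 to 2472 in WT-v, 4821 to 2179 in DoxR-v and 6415 to 3281 in DoxR. Probes of the same gene are not independent, and these comparisons share the WT arrays.

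Between the vorinostat-exposed and unexposed resistant lines, DoxR-v vs DoxR, the 3 DNMT3B probes were called higher and DNMT3A lower, where 12.6% of all probes were higher and 12.3% lower. In DoxR-v vs WT-v, TET1 ILMN_3247163 and DNMT3B ILMN_2328977 were higher and EZH2 ILMN_1652913 and DNMT3A lower, where 10.9% and 11.3% of all probes were called. In both comparisons DNMT3A had passed the filter only through the higher group.

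Whether the vorinostat-exposed line differed from its unexposed counterpart by the same amount on both backgrounds was tested as an interaction, the difference DoxR-v minus DoxR less the difference WT-v minus WT. Of the 14 probes, 5 were called lower and 2 higher, where 19.9% and 18.4% of all probes were called. For EZH2 ILMN_1652913 the difference was 1.40 among parental lines and 0.16 among resistant lines, an interaction of -1.24 ± 0.27 (adjusted p = 0.00331 by limma). The other EZH2 probes gave -0.84 ± 0.18 (ILMN_1708105, adjusted p = 0.00226) and -0.86 ± 0.26 (ILMN_2364529, adjusted p = 0.0179). For DNMT1 the differences were 0.63 and -0.22, the latter not called (adjusted p = 0.221 by limma), with an interaction of -0.85 ± 0.18 (adjusted p = 0.00275). The DNMT3A term was called lower too, but its probe was detected on no WT and no DoxR-v array. That probe passed the filter only through the other groups, so nothing is read from the DNMT3A term.

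A TET1 probe and a DNMT3B probe were called the other way. For TET1 ILMN_3247163 the difference was -0.49 among parental lines and 0.58 among resistant lines, both under the fold threshold. Its interaction was 1.07 ± 0.27 (adjusted p = 0.00717 by limma). The other TET1 probes were not called, with -0.06 ± 0.32 (ILMN_1741056, adjusted p = 0.913) and 0.32 ± 0.34 (ILMN_1664909, adjusted p = 0.504). DNMT3B ILMN_2328977 gave 0.87 ± 0.28 (adjusted p = 0.0262), with differences of 0.08 and 0.95. The other DNMT3B probes, which rose on both backgrounds, gave 0.57 ± 0.19 (ILMN_2328972, adjusted p = 0.0297, under the fold threshold) and 0.30 ± 0.21 (ILMN_1794692, adjusted p = 0.3). EED and SUZ12 gave -0.54 ± 0.24 (adjusted p = 0.0952) and -0.47 ± 0.21 (adjusted p = 0.0894), under the fold threshold.

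**Figure D4:**
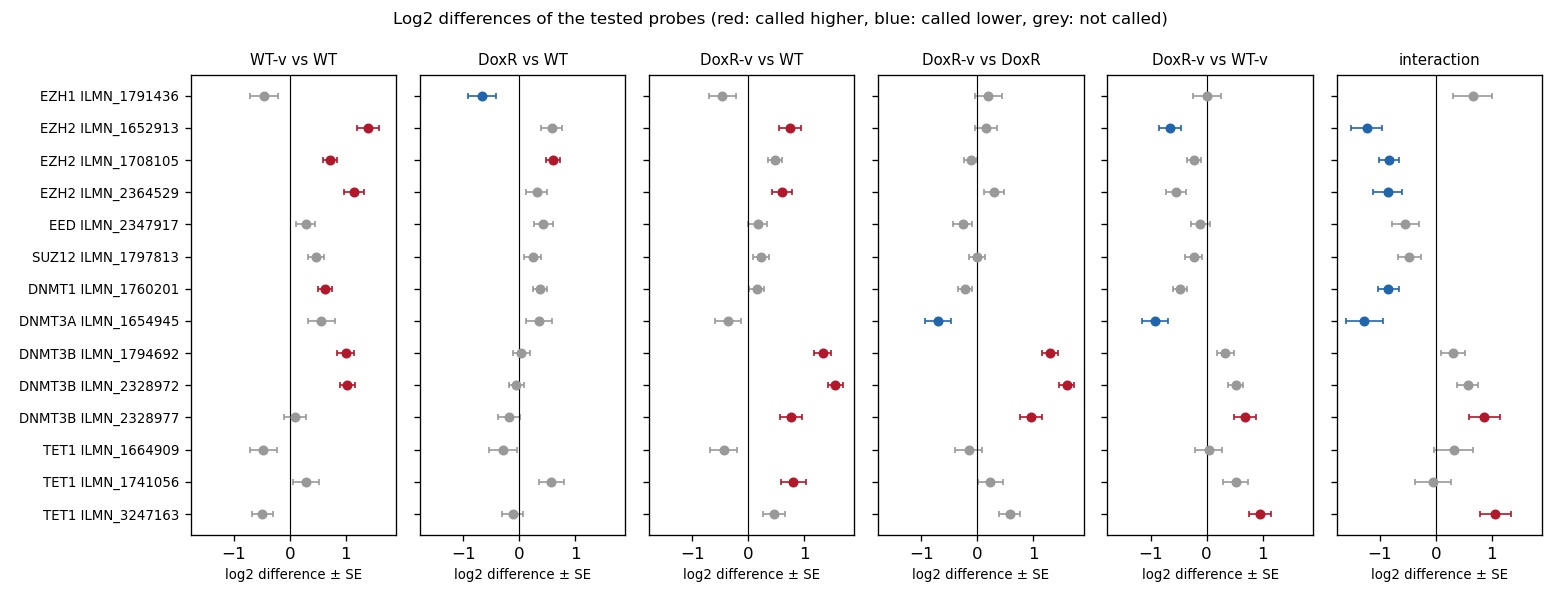
Log2 difference (x axis, ± SE) of the 14 tested probes in the 5 comparisons and in the interaction, (DoxR-v minus DoxR) minus (WT-v minus WT). Red marks probes called higher and blue those called lower (adjusted p below 0.1 by limma and fold above 1.5), and grey those not called; EZH2 and DNMT1 lie left of 0 in the interaction and the DNMT3B probes right of 0.

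EZH2 and DNMT1 are genes of dividing cells, so their levels were set beside the proliferation markers. Of the 19 markers tested, 11 were higher and 0 lower in WT-v, 8 and 0 in DoxR-v, and 3 and 1 in DoxR, each against WT. The list shares MCM2 with the genes closest to EZH2 and PCNA with the partners of DNA methylation given below. Over all 12093 genes, each read by the probe whose mean level over the arrays was highest, 14% were called higher and 12.3% lower in WT-v, 12.6% and 11.8% in DoxR-v, and 17.1% and 16% in DoxR. WT-v, where the mean levels of EZH2 and DNMT1 were highest, also had the highest marker sum, though WT-v and DoxR overlapped on EZH2 ILMN_1708105. Between the resistant lines, DNMT1 was higher in DoxR (12.25 to 12.37) than in DoxR-v (11.98 to 12.21). Their marker sums overlapped, at 15.23 to 15.30 in DoxR and 15.26 to 15.44 in DoxR-v. DNMT3B was highest in DoxR-v, whose marker sum lay below that of WT-v. The part of proliferation in these levels was not tested.

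**Figure D5:**
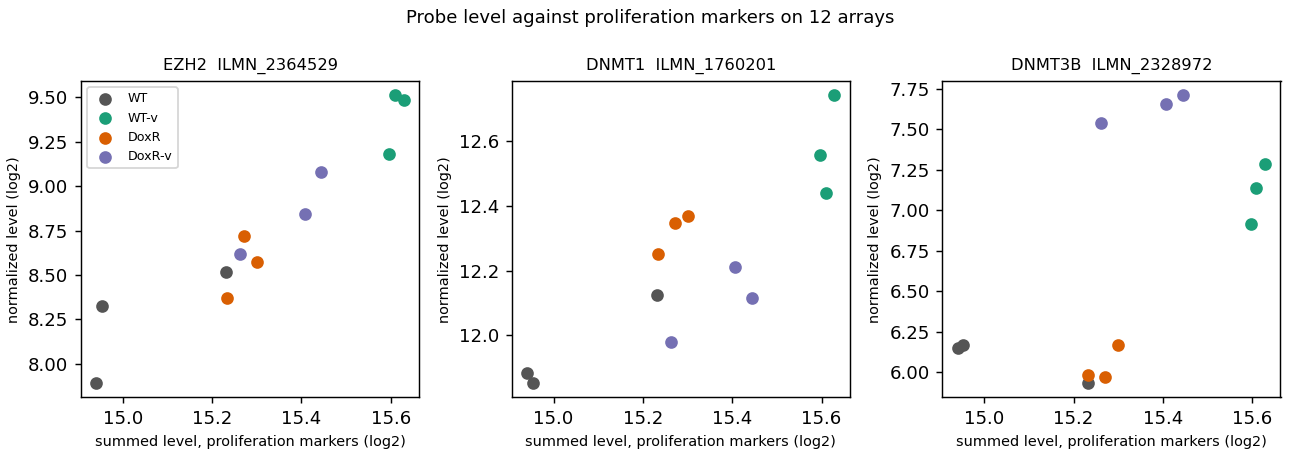
Normalized log2 level of 1 probe each of EZH2, DNMT1 and DNMT3B (y axis) against the log2 of the summed level of 19 proliferation markers (x axis) on 12 arrays, coloured by group. EZH2 and DNMT1 are highest on the WT-v arrays at the right, whereas DNMT3B ILMN_2328972 is highest on the DoxR-v arrays, which lie to the left of WT-v.

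The partner genes of PRC2 did not move as 1 group. Of 8 tested of 10 listed, 3 were higher and 1 lower in WT-v, 2 and 1 in DoxR-v, and 2 and 1 in DoxR, each against WT. Over all genes, 14% were called higher and 12.3% lower in WT-v, 12.6% and 11.8% in DoxR-v, and 17.1% and 16% in DoxR. RBBP4, a histone-binding subunit, rose in all 3 lines (log2 differences 1.10 in WT-v, 0.94 in DoxR and 0.92 in DoxR-v), whereas its relative RBBP7 fell by 0.86 in WT-v. These values come from the tested probe with the highest mean level of each gene. With the probes of a gene averaged the list gave 1 higher in WT-v, 1 in DoxR-v and 0 in DoxR. The rise of RBBP4 in DoxR was thus not called once its probes were averaged. JARID2, which helps bring PRC2 to chromatin, fell by 1.07 in DoxR and 0.59 in DoxR-v, with 0.07 in WT-v. EPOP, an accessory subunit, rose by 0.97 in WT-v and 0.77 in DoxR-v. The median of the 8 genes was -0.07 in DoxR, and 0.24 with median scaling.

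Subunits of PRC1, the complex that binds the PRC2 mark and ubiquitinates histone H2A, gave 2 higher and 2 lower in WT-v, 1 and 3 in DoxR-v, and 3 and 3 in DoxR, of 20 tested. The shares over all genes were 14% and 12.3%, 12.6% and 11.8%, and 17.1% and 16% in that order, and the PRC1 counts are not read as a result. With median scaling the PRC1 counts were 9 and 1, 4 and 0, and 6 and 1 in the same order, and with the authors' normalized values 2 and 1, 0 and 0, and 1 and 1. CBX2, a reader of the PRC2 mark, rose by 1.05 in WT-v and 0.70 in DoxR and differed by 0.04 in DoxR-v. CBX6, another reader, fell by 1.37 in DoxR and differed by 0.08 in DoxR-v. SCML1 fell by 2.08 in WT-v and 0.97 in DoxR-v. Among 4 tested genes that remove the marks, KDM6A, a demethylase of histone H3 lysine 27, fell by 0.81 in DoxR-v, and ASXL2, a partner of the H2A deubiquitinase, rose by 0.82 in WT-v. In DoxR 0 of these 4 were called, with 2 lower at an unadjusted p below 0.05 by limma. At an adjusted p below 0.1 with no fold threshold, 4992 of all 21609 probes were lower in DoxR.

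Of 8 tested partners of DNA methylation, 3 were called higher and 0 lower in WT-v, 1 and 0 in DoxR-v, and 2 and 1 in DoxR, where 14%, 12.6% and 17.1% of all genes were called higher. UHRF1, which brings DNMT1 to newly replicated DNA, rose by 1.12 in WT-v and 0.80 in DoxR, and its difference in DoxR-v was 0.48 (adjusted p = 0.0742 by limma, under the fold threshold). Its interaction was -1.44 (adjusted p = 0.00105), with the same sign as that of DNMT1. TRIM28, which recruits silencing enzymes, rose by 1.08 in WT-v with an interaction of -1.40 (adjusted p = 0.00327). USP7, a deubiquitinase that binds DNMT1, fell by 0.90 in DoxR.

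Among 6 tested readers of methylated DNA, ZBTB33 rose by 0.70 in DoxR but fell by 0.76 in DoxR-v and 0.67 in WT-v, and ZBTB4 rose by 0.62 in DoxR and 0.65 in DoxR-v. Of 12 tested genes that supply TET cofactors or remove its products, 4 were higher and 2 lower in DoxR, and 2 and 2 in each of WT-v and DoxR-v. Over all genes, 17.1% were called higher and 16% lower in DoxR, 14% and 12.3% in WT-v, and 12.6% and 11.8% in DoxR-v. GADD45G, linked to active demethylation, was lower in all 3 lines (-2.38 in DoxR, -3.07 in DoxR-v and -1.86 in WT-v). Its relatives went the other way in DoxR, where GADD45A (0.77) and GADD45B (0.81) were called higher. GADD45A was also called higher in DoxR-v (0.59), and their other differences from WT were not called. The glycosylase SMUG1 fell by 1.46 in DoxR and 1.21 in WT-v and differed by -0.15 in DoxR-v. The glycosylase NEIL2 rose by 1.24 in DoxR and 0.73 in DoxR-v.

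Of 8 tested genes that make or clear S-adenosylmethionine, the methyl donor of EZH2 and the DNMT enzymes, 2 were higher and 0 lower in DoxR, 1 and 0 in DoxR-v, and 1 and 1 in WT-v. The shares over all genes were 17.1% and 16%, 12.6% and 11.8%, and 14% and 12.3% in that order. MAT2B, a regulatory subunit of the synthetase, rose by 1.10 in DoxR, and MTR, methionine synthase, by 0.83. Germline genes that DNA methylation normally keeps off were largely not detected, with 9 of the 12 listed below detection on every array. Of the other 3, SOHLH2 was called higher in DoxR, TDRD1 higher in DoxR-v, and GTSF1 lower in DoxR and DoxR-v. In each of WT, WT-v and DoxR-v, 1 of the 3 was detected on all arrays, and in DoxR 2 were. These genes may have passed the filter mainly through their higher group, so no sizes are given and nothing is read from the calls.

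The genes whose levels followed each member most closely over the 12 arrays were sought among 8303 or 8304 genes detected on every array, as a description in which all points share 4 groups. For EZH2 (ILMN_2364529) they were EP300, MCM2 and TPX2 (Pearson r 0.98, 0.98 and 0.97), of which MCM2 is a replication factor and TPX2 a spindle protein. For DNMT1 they were LMNB2, NCAPD3 and CNOT1 (0.99, 0.98 and 0.98), and for DNMT3B (ILMN_2328972) SLCO4A1, GNAI2 and IDH3B (0.97, 0.96 and 0.96). SMAD4 followed EED (0.96), MIR124-2HG followed SUZ12 (0.94) and PTCD2 followed TET1 ILMN_3247163 (0.95). DNMT3A and EZH1 had lower best values, 0.88 with SLC25A23 and 0.88 with UGT1A3.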

How the data were processed

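Gene expression was measured on Illumina HT-12 v4 bead arrays in 12 samples, grouped by their titles. The authors deposited linear, non-normalized intensity and a detection p-value for each probe and array. Their second deposited table held normalized intensity and served as an alternative, and the submitters' processing notes name lumi 2.13.3 and R 3.0.1. Their low end is compressed, which lowers fold changes of dim probes.

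Intensities were corrected with neqc in limma 3.58.1 (R 4.3.3; offset 16, detection p-values for the background), quantile normalized and taken to log2. Probes with a detection p below 0.01 on at least 1 array were kept. All 12 arrays and all 21609 probes entered a limma model with eBayes that estimated 1 mean per group, and p-values were adjusted by Benjamini-Hochberg. Calls required an adjusted p below 0.1 and a fold above 1.5, the thresholds of the study. The fit was tested on simulated data. An "at least" fold is given for a probe that no array of the lower group detected. It sets the mean of the brighter group against a floor, which on each array of the lower group is the lowest level among detected probes or, if higher, the probe's own level. Probes were named through the platform table, and all 19 member probes matched the same current symbol by Entrez identifier. Members and lists were chosen with earlier results of these data known. Listed genes were read by their tested probe with the highest mean, and up to 4 per list, with the smallest adjusted p over the 6 comparisons, were open to naming. GADD45A and GADD45B were named outside this rule, beside their relative GADD45G. For each member the 3 genes of highest correlation were sought. The number of arrays limits the precision.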

Additional observations from a re-analysis of the deposited data

Results flagged for a closer look

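The interaction term in limma, for a vorinostat difference that was not the same on both backgrounds, was called for 7 probes. The DNMT3A probe is among them, and nothing is read from it. The term, the difference among resistant lines less that among parental lines, was below 0 for EZH2 (-1.24 for ILMN_1652913, -0.84 for ILMN_1708105 and -0.86 for ILMN_2364529), DNMT1 (-0.85) and DNMT3A (-1.27). For DNMT1 the difference was 0.63 ± 0.13 among parental lines and -0.22 ± 0.13 among resistant lines, the latter not called (adjusted p = 0.221 by limma). The term was called above 0 for DNMT3B ILMN_2328977 (0.87) and TET1 ILMN_3247163 (1.07), and was not called for the other probes of these genes. Over all probes, 19.9% were called lower and 18.4% higher in the same term. The EZH2 and DNMT1 values kept their calls with each array left out, and so did DNMT3B ILMN_2328977 and TET1 ILMN_3247163. The calls of DNMT3A, DNMT3B ILMN_2328977 and TET1 ILMN_3247163 were lost without background correction and with the authors' normalized values, and the DNMT3B and TET1 calls also with probes of a gene averaged. The call of EZH2 ILMN_1708105 was lost with the authors' normalized values. The DNMT3A probe was detected on no WT and no DoxR-v array and passed the filter only through WT-v and DoxR. Its value of -1.27 is therefore listed as a record only and is not read as an effect size.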

How the results depend on the processing

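None of the 29 member calls changed sign under an alternative, and 537 of 602 recomputed calls were kept. Leaving out an array of a group not compared left the log2 difference unchanged, so many of the recomputed calls could hardly be lost. In all, 7 calls held under every alternative: EZH2 ILMN_1652913 and ILMN_2364529 in WT-v vs WT and in the interaction, DNMT3B ILMN_2328972 in DoxR-v against WT and against DoxR, and DNMT1 in the interaction. Below, counts of called member probes are given in the order DoxR, DoxR-v and WT-v against WT, DoxR-v vs DoxR, DoxR-v vs WT-v, and interaction, with main counts of 2, 6, 6, 4, 4 and 7. Without background correction they were 0, 2, 3, 2, 0 and 4, and with the authors' normalized values 0, 1, 3, 1, 0 and 3. Both settings compress dim probes, and calls over all probes fell too. In the same order the main calls over all probes were 6415, 4821, 5352, 5383, 4813 and 8282. They were 3281, 2179, 2472, 2860, 2219 and 5040 without background correction, and 2072, 1323, 1507, 1838, 1372 and 3307 with the authors' normalized values. DNMT3B ILMN_2328972 in WT-v, for example, kept an adjusted p of 6.49e-05 and 0.000233 with log2 differences of 0.58 and 0.34. With probes of a gene averaged, 1, 2, 3, 2, 1 and 3 of 8 genes were called. DoxR vs WT gave 5 with median scaling, 1 with no filter on dim probes and 6 with no fold threshold, which gave 7 in DoxR-v vs WT-v. Over all probes, 6655 of 21609, 6273 of 47323 and 10192 of 21609 were called in DoxR vs WT, in that order. With no fold threshold 8101 of 21609 were called in DoxR-v vs WT-v. Leaving out each array in turn gave 0 to 4, 4 to 7, 5 to 8, 3 to 5, 3 to 5 and 7 to 10. In DoxR vs WT the count was 0 without WT replicate 2, 1 without WT replicate 1 or DoxR replicate 1, and 4 without WT replicate 3. Median scaling moved the share of calls over all probes that were higher to 73.1%, 87.2%, 84.8%, 65.8%, 53.1% and 35.1%. It turned the list medians of PRC1 in DoxR-v (-0.02 to 0.36) and DNA methylation partners in DoxR-v (-0.12 to 0.21). List counts under the alternatives were added after seeing the data. Replicate numbers did not pair the samples (1 of 18 same-number pairs had r over 0.1), and with the replicate number as a block the counts were 2, 6, 6, 4, 4 and 8.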
